A study of Mus musculus with 12 samples.

Results

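Type I interferon response genes are the genes that cells switch on when interferon alpha or beta binds its receptor. 51 of them were followed in endothelial cells sorted from mouse lungs, as the rows of the deposited tables whose gene symbol equals a member of the list. All 51 were among the 24360 genes used, none was at 0 in every library, and 42 were among the 11634 genes that passed a filter on low values and were tested. The study used C57BL/6J mice at postnatal day 5 and 3 genotypes with 4 libraries each. The WT group is labelled wild type. In L12-ECKO mice floxed Lats1 and Lats2, which encode kinases of the Hippo pathway, were deleted with VE-cadherin-CreERT2. In L12YT-ECKO mice the same driver acted on floxed Lats1, Lats2, Yap and TAZ; the last pair, Yap1 and Wwtr1 in the tables, encodes the co-activators that the kinases restrain. VE-cadherin drives this tamoxifen-inducible recombinase in endothelium throughout the body, so the lung was not its only site of action. Whether WT mice carried Cre, when recombination was induced, and whether each library is its own animal are not given in the labels, so p-values measure only the spread between these libraries.

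Interferon alpha and beta act through a receptor of IFNAR1 and IFNAR2, which engages the kinases JAK1 and TYK2. These phosphorylate STAT2, which together with IRF9 is part of a complex that binds the interferon-stimulated response element in promoters. The genes so induced encode sensors of foreign RNA, transcription factors that amplify the response, and proteins that block viral replication or entry. Endothelial cells both make and answer type I interferon, and many of these genes also have a low basal expression in the absence of infection.

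RefSeq promoters, each covering 250 bases before to 50 after the gene's start in GRCm38.p6, were found for 39 of the 51 members. The response element was searched on both strands as GAAA, any 2 bases, then GAAA. It was found in 20 of the 39, or 51.3%, against 3.99% of 27025 genes with a promoter in the same table. The gamma-activated site, searched as TTCNNNGAA, was found in 9 members, or 23.1%, against 9.55% of genes; the 2 motifs can overlap. The promoters of the 2 genes called in the comparisons and of 3 well-known interferon targets are printed 5′ to 3′ on the gene's strand, with matches to the response element, on either strand, in capitals. A match is a description of the letters and not a measured binding site. Isg15 lies on the minus strand (chr4:156200769-156201068) and held 3 overlapping matches, the first from base -78 to base -69 relative to the start. Bst2, also on the minus strand (chr8:71537423-71537722), held 2 overlapping matches from base -130 to base -115. Ifit1 (chr19:34640639-34640938) and Ifit3 (chr19:34583279-34583578), on the plus strand, held 2 separate matches each. Rsad2 (chr12:26456403-26456702, minus strand) held 1, from base -120 to base -111.
Isg15: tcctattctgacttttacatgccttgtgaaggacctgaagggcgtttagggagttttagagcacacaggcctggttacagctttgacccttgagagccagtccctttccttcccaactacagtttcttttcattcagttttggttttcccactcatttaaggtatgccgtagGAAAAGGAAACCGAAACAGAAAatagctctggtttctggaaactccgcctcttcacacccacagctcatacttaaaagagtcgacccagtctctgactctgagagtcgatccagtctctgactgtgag
Bst2: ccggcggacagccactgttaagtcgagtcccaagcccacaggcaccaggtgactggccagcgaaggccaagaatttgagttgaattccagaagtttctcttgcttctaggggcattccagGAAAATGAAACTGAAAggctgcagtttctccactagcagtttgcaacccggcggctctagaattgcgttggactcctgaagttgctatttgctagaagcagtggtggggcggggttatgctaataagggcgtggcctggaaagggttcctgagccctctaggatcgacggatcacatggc
Ifit1: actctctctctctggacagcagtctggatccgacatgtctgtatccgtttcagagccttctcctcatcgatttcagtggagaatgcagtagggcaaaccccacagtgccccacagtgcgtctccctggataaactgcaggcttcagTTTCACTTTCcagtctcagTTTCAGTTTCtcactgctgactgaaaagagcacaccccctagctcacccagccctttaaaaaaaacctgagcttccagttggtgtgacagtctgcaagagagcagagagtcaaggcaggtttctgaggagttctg
Ifit3: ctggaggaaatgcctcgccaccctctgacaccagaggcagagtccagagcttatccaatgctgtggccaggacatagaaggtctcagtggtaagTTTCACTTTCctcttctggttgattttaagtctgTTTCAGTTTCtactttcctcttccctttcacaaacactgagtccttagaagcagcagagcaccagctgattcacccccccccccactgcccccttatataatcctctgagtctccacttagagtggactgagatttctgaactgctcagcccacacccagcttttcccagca
Rsad2: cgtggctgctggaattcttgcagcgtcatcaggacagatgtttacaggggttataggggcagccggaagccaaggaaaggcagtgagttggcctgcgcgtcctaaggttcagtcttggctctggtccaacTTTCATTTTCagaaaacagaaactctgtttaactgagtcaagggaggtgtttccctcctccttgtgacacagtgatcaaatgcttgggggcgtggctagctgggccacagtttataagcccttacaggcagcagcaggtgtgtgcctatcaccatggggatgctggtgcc

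Values are the deposited quantile-normalized log2 values, on which 1 unit is a factor of 2, and the depth behind them is unknown. Where a group mean averages in libraries at 0, a difference of means is no fold change. The libraries held 9804 (L12-ECKO replicate 3) to 13027 (L12-ECKO replicate 4) genes above 0, against 11052 to 11229 in WT. All 24 pan-endothelial markers were detected in every group, with a mean per library of 11.87 to 12.27. In L12-ECKO 7 of them lay above WT and 16 below (background 49.0% of genes tested above). Sox17 was called lower there, with a difference of -1.16 (limma adjusted p = 0.0268, background 0.189% called lower). Cldn5 was called higher in L12YT-ECKO than in L12-ECKO, by 1.14 (limma adjusted p = 0.0401, background 0.0688% in either direction). Wwtr1 was at 11.56 to 12.01 in WT, 10.11 to 11.57 in L12-ECKO and 8.16 to 9.37 in L12YT-ECKO, where it fell by 3.0 from WT (limma adjusted p = 0.000662). Yap1 was at 9.46 to 10.02, 9.35 to 10.45 and 6.69 to 8.20 in the same order. Lats1 and Lats2 were not called in either knockout group. From WT, Lats1 differed by -2.70 in L12-ECKO and -0.68 in L12YT-ECKO (SE 1.87 each) and Lats2 by 1.0 and 0.04 (SE 0.36 each). Whether the 3′ tags fall in the deleted exons is not given in the sources used here, so these values do not check the deletion. 5 tables have a run of rows, none of them a member, displaced by 1 row: those of L12-ECKO replicates 2, 3 and 4 and, in the other knockout group, of replicates 3 and 4. 0 of 4 WT tables have it, so it falls unevenly on the groups. Xist and Ddx3y marked 5 female libraries, namely WT replicate 4, L12YT-ECKO replicate 3 and L12-ECKO replicates 2, 3 and 4.

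Most interferon response genes had a mean above that of WT in both knockout groups, and 2 of the single differences passed the test. In L12-ECKO 44 of the 51 members had a mean above that of WT, where 49.4% of all 17225 genes above 0 in any library did. Their median difference was 0.71, against 0.00 for all those genes. In L12YT-ECKO 44 of 51 also lay above the WT mean, against 51.7% of genes, with a median of 1.4 against 0.04. Both comparisons share the 4 WT libraries. The lowest value above 0 was 3.01 to 3.16 in WT libraries, 0.067 to 4.98 in L12-ECKO and 0.131 to 2.77 in L12YT-ECKO. Members at 0 in WT could thus count as higher on values that no WT library shows, such as Oas3 in L12-ECKO (1.28 in 1 library). Since many members were near 0 in WT, the 24 members with a mean of at least 7 over all 12 libraries were also counted: 20 of them lay higher in L12-ECKO (48.5% of genes at that level) and 21 in L12YT-ECKO (54.2%), with medians of 0.51 and 0.73. 5 of the 24 (Ifih1, Irf7, Isg15, Parp12 and Rtp4) had a WT mean below 7 and reached that level through the knockout libraries, and all 5 lay higher in both groups. Of the other 19, which had a WT mean of at least 7, 15 lay higher in L12-ECKO (43.2% of the 6549 genes with such a WT mean) and 16 in L12YT-ECKO (49.1%), with medians of 0.37 and 0.50; this level was chosen after seeing the data. In bulk RNA, fewer responding cells and less of the RNA per cell cannot be told apart. The number of members above 0 was 33 to 39 in WT, 37 to 47 in L12-ECKO and 42 to 47 in L12YT-ECKO. Over all genes the number above 0 was 11052 to 11229 in WT, 9804 to 13027 in L12-ECKO and 11291 to 12971 in L12YT-ECKO. The member counts therefore cannot be read apart from detection over all genes.

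**Figure D1:**
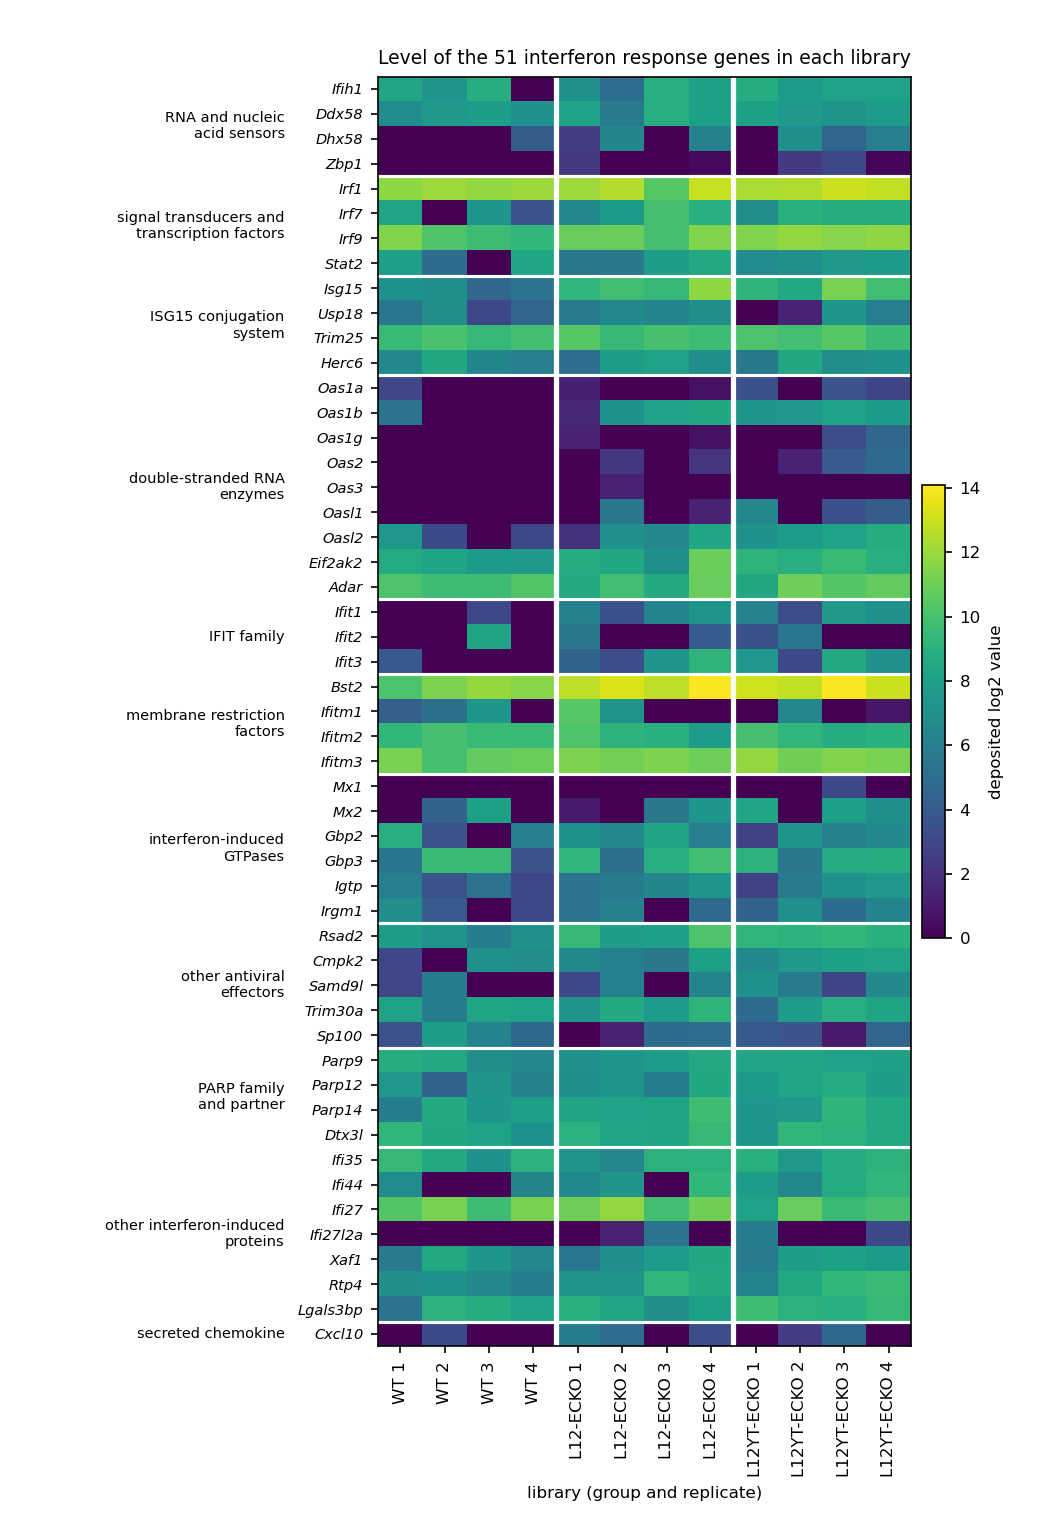
Heat map of the deposited log2 value of each of the 51 interferon response genes (rows, grouped by role) in each of the 12 libraries (columns), on a colour scale from 0 to 14. Rows such as Isg15, Bst2 and Ifit1 are lighter in all 8 knockout libraries, while the rows of Mx1 and Oas3 are at 0 in all but 1 library.

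Limma called 2 of the 42 tested members higher in L12-ECKO than in WT, Isg15 and Bst2 (background 0.292% of all genes tested called higher, 0.481% in either direction), and none lower (background 0.189%). At an unadjusted p under 0.05, 7 members were higher (background 6.31%) and 0 lower (background 5.91%). In L12YT-ECKO versus WT limma called 0 members (background 0.00860% in either direction, which is the gene Wwtr1). At an unadjusted p under 0.05, 15 members were higher (background 4.13%) and 0 lower (background 2.11%). With both knockout groups set against WT, the called members were again Isg15 and Bst2 (background 0.0860% called higher, 0.0946% in either direction). There 13 members were higher at an unadjusted p under 0.05 (background 6.63%) and 0 lower (background 4.20%), and 45 of all 51 had a mean above WT (background 55.3%). These unadjusted counts moved with the libraries: with displaced rows as a covariate they were 3 in L12-ECKO, 9 in L12YT-ECKO and 8 for both groups together, and over libraries without displaced rows they were 3, 5 and 5. The L12-ECKO count was 11 without WT replicate 1, and the L12YT-ECKO count was 9 without L12YT-ECKO replicate 3. Of the 42 tested members 24 meet the filter in WT libraries alone, and others passed through libraries in which they are high, so counts over the 42 do not describe all 51. Members that passed through the knockout libraries lean toward higher, so the counts higher, and the 0 lower, are partly set by the filter.

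The calls went to Isg15, a ubiquitin-like protein that is joined to other proteins, and Bst2, which encodes tetherin, a membrane protein that holds budding virus on the cell surface. Isg15 (chromosome 4, 156199424 to 156200818) was at 7.2, 7.04, 4.66 and 5.39 in WT replicates 1 to 4. It was at 9.27, 9.78, 9.39 and 11.71 in L12-ECKO and at 9.20, 8.52, 11.18 and 9.79 in L12YT-ECKO. All 8 knockout libraries lay above all 4 WT libraries, and the knockout groups overlapped. Isg15 rose by 3.96 in L12-ECKO (SE 0.69, limma adjusted p = 0.0167) and by 3.78 in both knockout groups together (limma adjusted p = 0.0209). In L12YT-ECKO alone the difference was 3.60, which did not pass (SE 0.69, limma adjusted p = 0.184). Without WT replicate 4 the L12-ECKO call was lost (limma adjusted p = 0.0617), and in the other 11 fits without 1 library it was kept. With displaced rows as a covariate the difference was 2.94 (limma adjusted p = 0.249), and over the 7 libraries without displaced rows, with 1 L12-ECKO library, it was 3.20 (limma adjusted p = 0.52). With sex as a covariate it was 3.61 (limma adjusted p = 0.0802). Over all 24 alternatives the adjusted p ran from 0.0067 to 0.52, with 18 calls. The call for both knockout groups together was lost without WT replicates 2 or 4.

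Bst2 (chromosome 8, 71534255 to 71537472) was at 10.12, 11.33, 11.86 and 11.57 in WT. It was at 12.70, 13.33, 12.67 and 14.03 in L12-ECKO and at 13.11, 12.82, 13.95 and 12.98 in L12YT-ECKO. Again all 8 knockout libraries lay above all WT libraries. Bst2 rose by 1.96 in L12-ECKO (SE 0.38, limma adjusted p = 0.0331) and by 1.98 in both knockout groups together (limma adjusted p = 0.0269), and differed by 1.99 in L12YT-ECKO without passing (limma adjusted p = 0.184). The L12-ECKO call was kept in 5 of 12 fits without 1 library: it was lost without WT replicates 1, 2 or 4, L12-ECKO replicates 1, 2 or 4, or L12YT-ECKO replicate 1, where the adjusted p reached 0.0932. The difference was 1.54 with displaced rows as a covariate (limma adjusted p = 0.37), 1.48 over the libraries without displaced rows (limma adjusted p = 0.515) and 1.61 with sex as a covariate (limma adjusted p = 0.117). Over all 24 alternatives the adjusted p ran from 0.0174 to 0.515, with 11 calls. The call for both knockout groups together was lost without replicate 2 of WT or of L12-ECKO, WT replicate 4, or replicate 1 or 4 of L12YT-ECKO.

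Separation of whole groups was examined next to the test. In L12-ECKO versus WT, 4 tested members did not overlap, Isg15, Ifit1, Bst2 and Rtp4, all of them higher (background 2.97%). In L12YT-ECKO versus WT there were 9, Irf1, Irf9, Isg15, Oas1b, Eif2ak2, Ifit1, Bst2, Rsad2 and Parp12 (background 2.54%). All 8 knockout libraries lay above all WT libraries for Isg15, Ifit1 and Bst2 (background 0.593%). Ifit1 and Oas1b, at 0 in 3 of 4 WT libraries, passed the filter only with the knockout libraries and could separate only upward. No tested member lay wholly below WT in L12-ECKO (background 3.36%) or in L12YT-ECKO (background 2.17%).

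**Figure D2:**
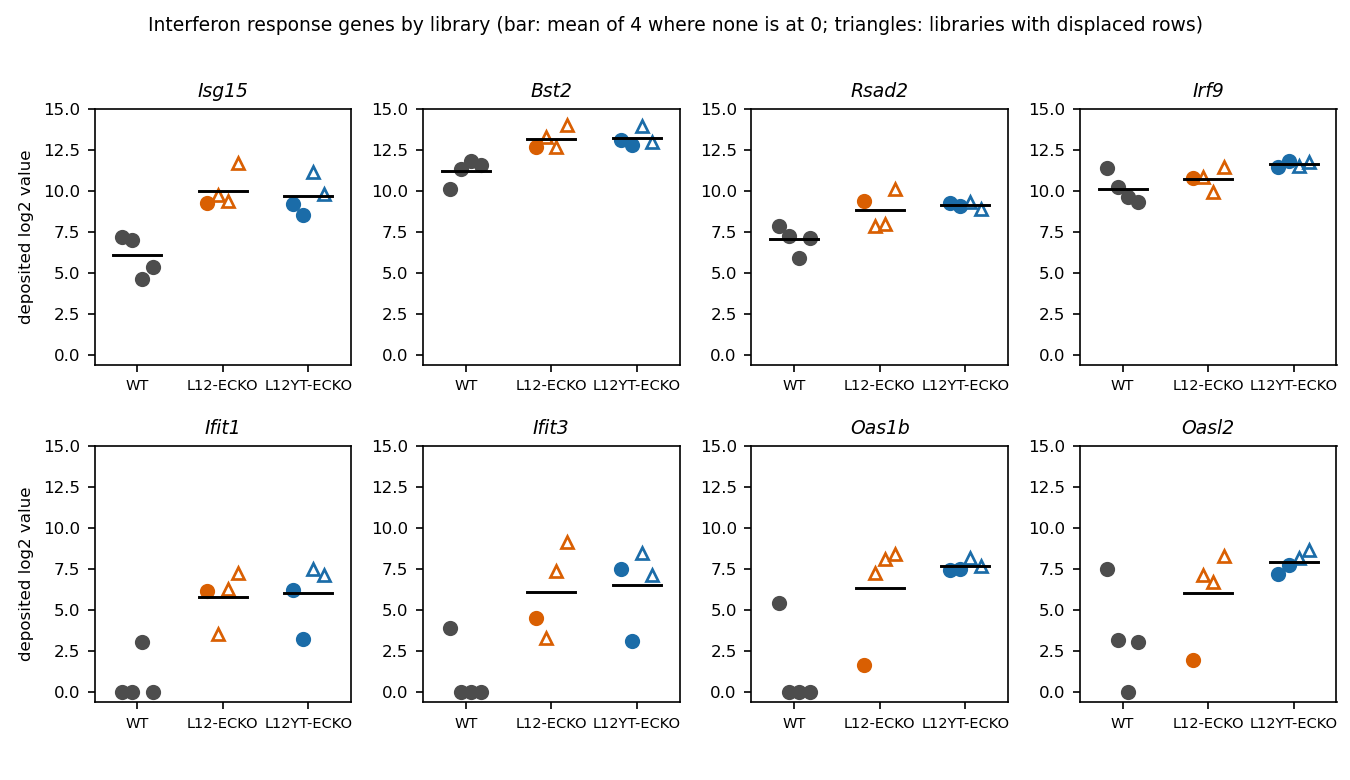
Deposited log2 values (vertical axis) of 8 interferon response genes in the 4 libraries of each group; bars are group means, drawn where no library is at 0, and triangles are libraries with displaced rows. Isg15 lies at 4.66 to 7.2 in WT and at 8.52 to 11.71 in the knockout libraries.

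Among the sensors of nucleic acids, Ddx58 (RIG-I), Ifih1 (MDA5) and Dhx58 (LGP2) bind viral RNA in the cytosol, and Zbp1 binds nucleic acids in the Z form. All 4 had a higher mean in both knockout groups than in WT, and none was called. Ddx58 was at 6.88, 7.55, 7.91 and 7.11 in WT, at 8.14, 5.88, 8.90 and 8.03 in L12-ECKO and at 7.99, 7.6, 7.31 and 7.80 in L12YT-ECKO. Those groups overlapped, with differences of 0.37 and 0.31 (SE 0.63 each). Dhx58 was listed at 0 in 3 WT libraries and at 4.18 in WT replicate 4. It was at 2.57, 6.44, 0 and 6.17 in L12-ECKO and at 0, 7.01, 4.61 and 6.03 in L12YT-ECKO, so 6 of 8 knockout libraries detected it. Zbp1 was not tested: it was at 0 in every WT library and reached at most 3.08, in L12YT-ECKO replicate 3. In L12-ECKO its values above 0 were 2.40 and 0.31, below the lowest WT value above 0 (3.01).

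The signal transducers and transcription factors of the response were Stat2, Irf9, Irf7 and Irf1. All 4 had higher means in both knockout groups, by 0.06 to 3.37 in L12-ECKO and by 0.74 to 3.47 in L12YT-ECKO, and none was called. Irf7, which amplifies interferon production, was at 8.35, 0, 7.42 and 3.72 in WT, at 6.51, 7.68, 9.95 and 8.84 in L12-ECKO and at 6.98, 8.94, 8.74 and 8.71 in L12YT-ECKO. WT replicates 1 and 3 lay within the range of the knockout libraries, and the differences were 3.37 and 3.47 (SE 1.47 each, limma adjusted p = 0.382 and 0.76). They average in WT replicate 2 at 0 and are no fold changes: without that library they were 1.75 and 1.84. Irf1, which activates interferon-responsive promoters, was at 11.73, 12.05, 11.80 and 11.97 in WT, at 12.04, 12.48, 10.36 and 12.92 in L12-ECKO and at 12.30, 12.41, 13.03 and 12.78 in L12YT-ECKO. All L12YT-ECKO libraries exceeded WT, by 0.74 on average, without passing (limma adjusted p = 0.817), while L12-ECKO spread to both sides of it. Irf9, named here after its values were seen, was at 11.41, 10.24, 9.64 and 9.31 in WT, at 10.82, 10.88, 9.91 and 11.45 in L12-ECKO and at 11.44, 11.81, 11.52 and 11.76 in L12YT-ECKO. Its differences from WT were 0.62 and 1.48 (limma adjusted p = 0.537 and 0.499).

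Partners of Isg15 did not separate in the way that Isg15 did. Trim25, a ubiquitin ligase that also acts on RIG-I, was at 9.50, 10.06, 9.37 and 9.81 in WT, at 10.41, 9.42, 9.98 and 9.74 in L12-ECKO and at 10.15, 9.91, 10.44 and 9.61 in L12YT-ECKO. The groups overlapped, with differences of 0.20 (95% interval -0.48 to 0.89) and 0.34 (-0.34 to 1.03). Herc6, the main ligase for ISG15 in mice, differed by 0.09 and 0.14 (SE 0.85 each). Usp18, which removes ISG15 and dampens receptor signalling, differed by 1.4 in L12-ECKO and by -1.35 in L12YT-ECKO (SE 1.61 each), where it was at 0 and 1.39 in replicates 1 and 2 and at 7.38 and 6.04 in replicates 3 and 4.

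Of 9 members grouped as enzymes of double-stranded RNA, 7 exceeded the WT mean in L12-ECKO and 8 in L12YT-ECKO, none was called, and 5 were too low to test. Whether each of them encodes an active enzyme in this strain was not examined. In L12-ECKO, Oas1g, Oas2 and Oas3 exceeded the WT mean only on values below the lowest WT value above 0. Oligoadenylate synthetases make a messenger that turns on RNase L, Eif2ak2 encodes the kinase PKR, which halts translation, and Adar edits adenosines in such RNA. Oas1b was at 5.44 in WT replicate 1 and listed at 0 in the other 3 WT libraries. It was at 1.63, 7.26, 8.13 and 8.43 in L12-ECKO and at 7.47, 7.52, 8.17 and 7.68 in L12YT-ECKO. L12YT-ECKO did not overlap with WT, whereas L12-ECKO replicate 1 fell within the WT range. The fitted differences, 5.0 and 6.35, average in libraries at 0 and are no fold changes (SE 1.65 each, limma adjusted p = 0.208 and 0.499). Oasl2, an OAS-like gene, was at 7.5, 3.16, 0 and 3.04 in WT, at 1.98, 7.14, 6.72 and 8.33 in L12-ECKO and at 7.23, 7.74, 8.20 and 8.71 in L12YT-ECKO. Groups overlapped through WT replicate 1 and L12-ECKO replicate 1, and the differences were 2.62 and 4.54 (SE 1.54 each, limma adjusted p = 0.5 and 0.685). These average in WT replicate 3 at 0 and are no fold changes.

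Oas1g, Oas2, Oas3 and Oasl1 were at 0 in every WT library and were not tested, nor was Oas1a, which was above 0 in 1 WT library. Their highest values were 6.54 for Oasl1 and 4.89 for Oas2, both in L12YT-ECKO, and Oas3 was above 0 in 1 library only (1.28, L12-ECKO replicate 2). Oas1a, Oas1b, Oas1g, Oas2 and Oas3 are neighbouring paralogs on chromosome 5, as are Oasl1 and Oasl2, and how reads shared between such copies were counted is not given in the sources used here. Adar was at 10.15, 9.65, 9.64 and 10.28 in WT, at 8.63, 9.76, 8.62 and 10.82 in L12-ECKO and at 8.39, 10.99, 10.32 and 10.69 in L12YT-ECKO. The WT range lay inside the range of each knockout group, and the differences were -0.47 and 0.17 (SE 0.55 each). Eif2ak2 differed by 0.71 and 1.06 (SE 0.60 each), and its L12YT-ECKO values, 8.88 to 9.54, lay above all WT values, 7.6 to 8.70.

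IFIT proteins bind foreign or uncapped RNA and block its translation. Ifit1 was at 3.08 in WT replicate 3 and listed at 0 in the other 3 WT libraries. It was at 6.15, 3.56, 6.32 and 7.28 in L12-ECKO and at 6.26, 3.22, 7.55 and 7.14 in L12YT-ECKO. All 8 knockout libraries lay above all WT libraries, but the lowest in each group (replicate 2) was close to WT replicate 3. The fitted differences of 5.06 and 5.28 (SE 1.55 each) did not pass (limma adjusted p = 0.175 and 0.562). They average in WT libraries at 0 and are no fold changes. Over the alternatives to the fit they fell as low as 1.54 and 1.75. Ifit3 was at 3.90 in WT replicate 1 and at 0 in the other 3, at 4.53, 3.31, 7.37 and 9.18 in L12-ECKO, and at 7.49, 3.10, 8.51 and 7.16 in L12YT-ECKO. Replicate 2 of both knockout groups lay below WT replicate 1, and the fitted differences were 5.12 and 5.59 (SE 1.71 each, limma adjusted p = 0.21 and 0.611). Those of Ifit3 are no fold changes either, and over the alternatives they fell as low as 1.88 and 2.15. Ifit2 did not follow its neighbours: it was highest in WT replicate 3 (8.22) and at 0 in 4 of the 8 knockout libraries. The 3 genes are paralogs on chromosome 19, and how reads shared between them were counted is not given.

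The membrane factors other than Bst2 went both ways. The Ifitm proteins hinder the fusion of viruses with the cell's membranes. Ifitm3 differed by 0.49 in L12-ECKO and by 0.68 in L12YT-ECKO (SE 0.29 each), Ifitm2 by -0.55 and -0.36 (SE 0.45 each), and Ifitm1, at 0 in 5 of the 12 libraries, by 0.19 and -2.41 (SE 2.38 each). None was called. They are paralogs on chromosome 7, with the same limit on shared reads.

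Interferon-induced GTPases, which attack viruses or the vacuoles of intracellular microbes, were not called. Gbp3 was at 5.49, 9.51, 9.55 and 3.72 in WT, at 9.30, 5.22, 8.90 and 9.85 in L12-ECKO and at 9.05, 5.58, 8.67 and 8.71 in L12YT-ECKO. Each group held both low and high libraries, and the differences were 1.25 and 0.94 (SE 1.47 each). Gbp2, Igtp, Irgm1 and Mx2 differed by 0.40 to 2.44 in L12-ECKO and by 1.15 to 2.73 in L12YT-ECKO, with standard errors of 1.31 to 2.27. Mx1 was above 0 in 1 library only (3.08, L12YT-ECKO replicate 3) and was not tested. Whether the Mx1 and Mx2 alleles of this strain are intact was not examined, so low values there do not show a lack of response.

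Of the other antiviral effectors, Rsad2 encodes viperin, an enzyme that makes a chain-terminating nucleotide, and Cmpk2, its neighbour on chromosome 12, a mitochondrial nucleotide kinase. Rsad2 was at 7.89, 7.29, 5.94 and 7.11 in WT, at 9.37, 7.86, 7.97 and 10.15 in L12-ECKO and at 9.27, 9.10, 9.34 and 8.93 in L12YT-ECKO. Its L12YT-ECKO libraries lay above all of WT, and L12-ECKO overlapped WT only through replicate 2. Differences were 1.78 and 2.10 (SE 0.55 each, limma adjusted p = 0.175 and 0.499), and 1.94 for both knockout groups together (limma adjusted p = 0.138). Cmpk2 differed by 2.31 and 3.36 and Samd9l by 1.64 and 3.46. Sp100, a nuclear body protein, differed by -2.80 and -2.31 (SE 1.67 each, limma adjusted p = 0.505 and 0.843), and Trim30a differed by 0.54 and -0.21.

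PARP family members, which attach ADP-ribose, and Dtx3l, a ubiquitin ligase that pairs with PARP9, were not called. Dtx3l was at 9.26, 8.45, 8.19 and 7.25 in WT, at 8.98, 8.35, 8.24 and 9.46 in L12-ECKO and at 7.40, 9.27, 9.13 and 8.51 in L12YT-ECKO. Those values overlapped throughout, with differences of 0.47 and 0.29 (SE 0.52 each). Parp12 differed by 0.86 and 1.80 (SE 0.76 each), Parp14 by 1.10 and 0.71 and Parp9 by -0.01 and 0.50. Parp9 and Dtx3l overlap on chromosome 16, so their values are uncertain where reads were not separated by strand, which the sources used here do not state.

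The remaining members were 7 interferon-induced proteins and a chemokine. Ifi44 was at 6.80, 0, 0 and 6.41 in WT, at 6.61, 7.38, 0 and 9.34 in L12-ECKO and at 7.76, 6.54, 8.66 and 9.28 in L12YT-ECKO. WT had 2 libraries at 0 and 2 near the lower knockout values, and the fitted differences were 2.53 and 4.76 (SE 1.94 each, limma adjusted p = 0.609 and 0.758). These average in libraries at 0 and are no fold changes. Ifi27, a mitochondrial protein gene, was at 10.28, 11.29, 9.73 and 11.21 in WT, at 10.97, 11.79, 9.84 and 11.04 in L12-ECKO and at 8.15, 10.85, 9.55 and 9.96 in L12YT-ECKO. The groups overlapped, and the differences were 0.29 and -1.0 (SE 0.54 each, limma adjusted p = 0.864 and 0.817). Ifi27 overlaps Ifi27l2a on chromosome 12; Ifi27l2a was at 0 in every WT library and was not tested. Rtp4, a chaperone of membrane receptors, differed by 1.45 and 1.72 (SE 0.69 each, limma adjusted p = 0.41 and 0.758). Lgals3bp differed by 0.23 and 1.4, Xaf1 by 0.10 and 0.28 and Ifi35 by -0.59 and 0.01. Cxcl10, which attracts T cells, was at 3.16 in WT replicate 2 and at 0 in the other WT libraries; it was above 0 in 5 of the 8 knockout libraries, at 2.55 to 5.99, and was not tested.

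**Figure D3:**
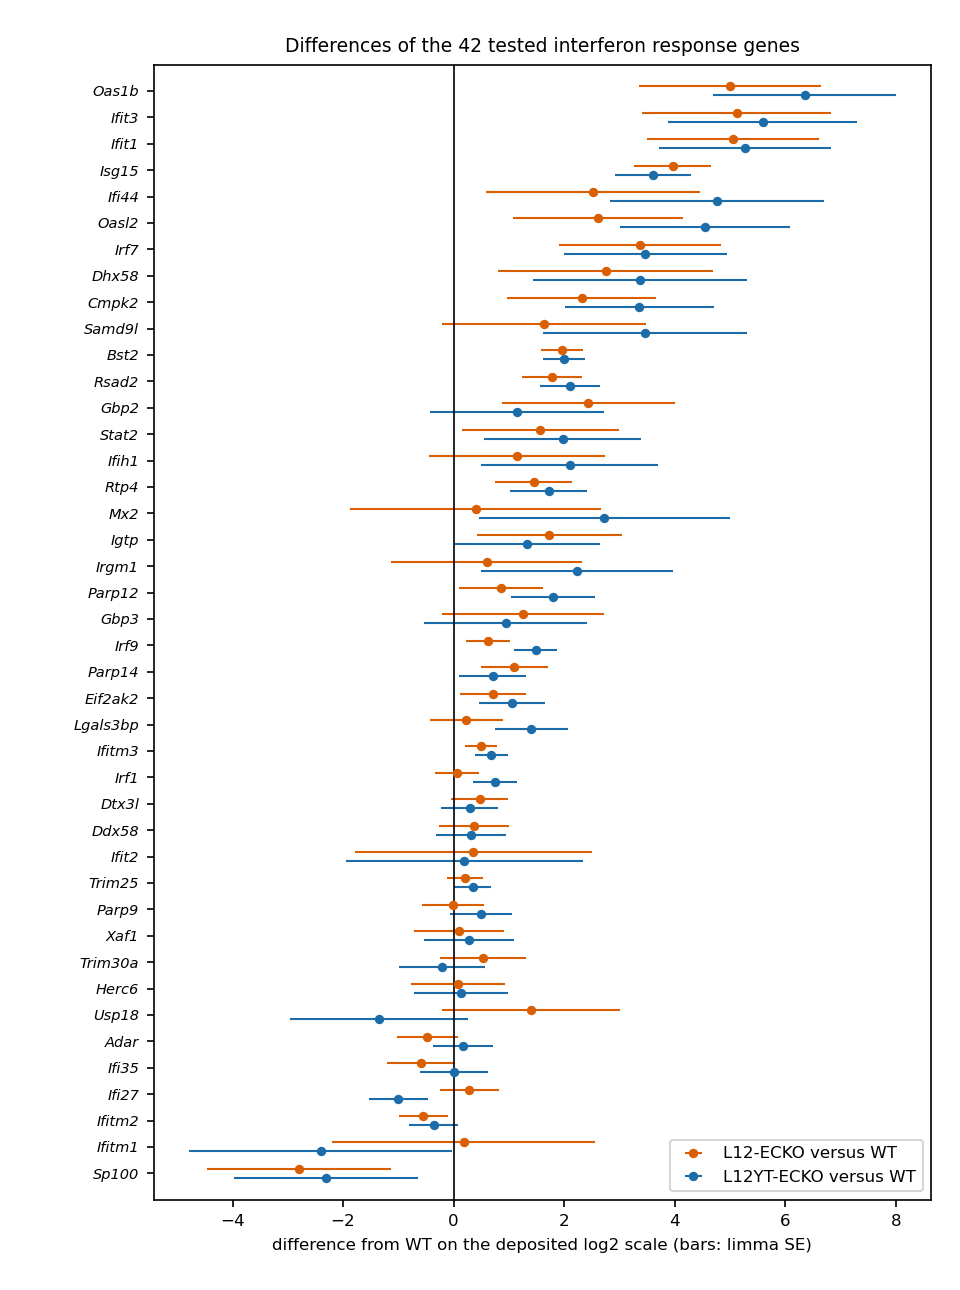
Differences from WT on the deposited log2 scale (horizontal axis, points with limma standard errors) of the 42 tested interferon response genes in L12-ECKO (orange) and L12YT-ECKO (blue). Isg15 (3.96 and 3.60) and Bst2 (1.96 and 1.99) lie above 0 with short bars, and the bars are wide for genes listed at 0 in several libraries, such as Mx2 (SE 2.27).

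L12YT-ECKO was compared with L12-ECKO to ask whether the response genes differ when Yap1 and Wwtr1 are also deleted. Limma called 0 of the 42 members (background 0.0688%). At an unadjusted p under 0.05 there was 1 higher, Irf9 (background 3.98%), and 1 lower, Ifi27 (background 2.10%). None of the 42 separated the groups (background 2.75% higher and 1.62% lower). For Isg15 the difference was -0.36 (95% interval -1.82 to 1.10) and for Bst2 it was 0.03 (-0.77 to 0.84). For Ifit1 it was 0.22 (-3.03 to 3.46) and for Rsad2 it was 0.32 (-0.82 to 1.47). The Irf9 difference was 0.87 (0.04 to 1.69, limma adjusted p = 0.808) and that of Ifi27 was -1.29 (-2.43 to -0.14, limma adjusted p = 0.748). Of the 24 members with a mean of at least 7, 17 had a higher mean in L12YT-ECKO, against 55.2% of genes, with a median difference of 0.19. These intervals leave room for differences of either sign for Isg15, Bst2, Ifit1 and Rsad2.

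Tested members with the response element in their promoter had a higher median difference from WT than those without it. The 16 with a match had a median of 1.41 in L12-ECKO and 1.65 in L12YT-ECKO, and the 18 without had 0.29 and 0.54. Members without a match in this window included Irf7, Oasl2, Ifi44 and Cmpk2, at differences of 2.31 to 3.37 in L12-ECKO, and members with a match included Ifitm2, at -0.55. For the gamma-activated site the order was the other way: the 8 tested members with a match had medians of 0.42 and 0.71, and the 26 without had 1.0 and 1.64. Both splits describe the members and are not tests. They hold only members that passed the filter. Ifit1 and Ifit3, with a match, and Irf7 and Oasl2, without, passed it only with the knockout libraries, so the medians are partly set by the filter. Members left out as untested included Oas1a, Oas1g and Oas3 with a match, at -0.28, 0.50 and 0.32 in L12-ECKO, and Oasl1 without, at 1.75.

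**Figure D4:**
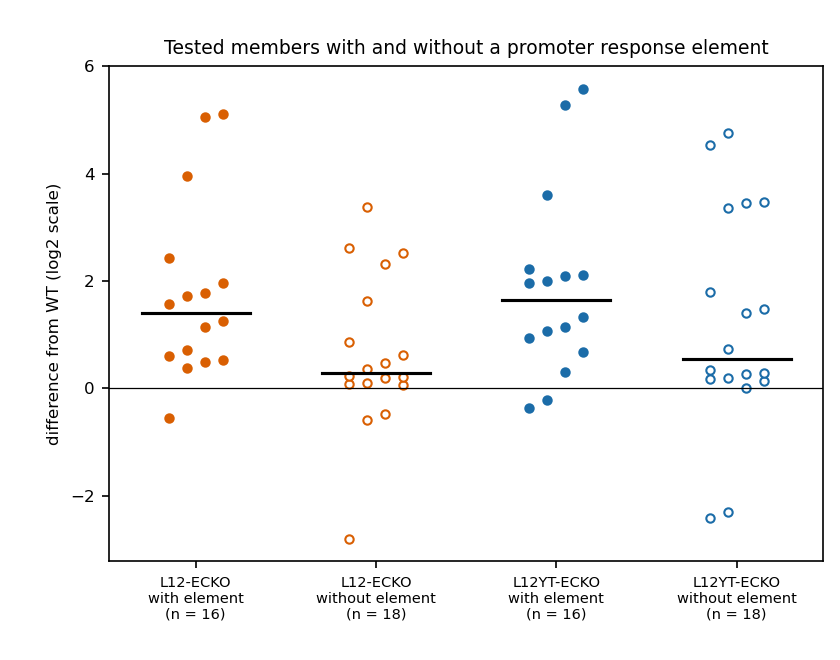
Differences from WT on the deposited log2 scale (vertical axis) of tested interferon response genes with (filled, n = 16) and without (open, n = 18) a response element match in the RefSeq promoter, for both knockout groups. Bars are medians, 1.41 against 0.29 in L12-ECKO and 1.65 against 0.54 in L12YT-ECKO. Some of these genes passed the filter only with the knockout libraries, so the medians are partly set by it.

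The rest of the pathway was read from lists of genes that are not members. All 21 interferon ligand genes were listed at 0 in every library, so no ligand transcript was detected, at a depth that is unknown. Of 18 tested receptor and signalling genes 1 was called in L12-ECKO (background 0.481% of all genes tested) and 0 in L12YT-ECKO. The called gene was Socs3, a feedback inhibitor of cytokine receptors. Socs3 was at 6.34, 6.51, 8.86 and 7.87 in WT, at 11.11, 9.87, 10.26 and 9.55 in L12-ECKO and at 9.31, 9.27, 9.0 and 9.0 in L12YT-ECKO. It rose by 2.80 in L12-ECKO (SE 0.51, limma adjusted p = 0.0187) and differed by 1.75 in L12YT-ECKO (limma adjusted p = 0.562), with all knockout libraries above WT. The call was lost without WT replicates 1 or 2 or L12-ECKO replicate 1 (limma adjusted p up to 0.0838), with no trend in the prior variance (limma adjusted p = 0.132), with displaced rows (0.0529) or sex (0.0515) as a covariate and over libraries without displaced rows (0.145). Over 24 alternatives the adjusted p ran from 0.00366 to 0.145. Socs3 answers other cytokines as well as interferon.

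The receptor chains were near WT: Ifnar1 differed by -0.09 and -0.28 (SE 0.37 each) and Ifnar2 by -0.66 and -0.38 (SE 0.64 each). None of 21 tested adaptors and kinases of nucleic acid sensing was called in any comparison. Nor was any of 17 tested genes that clear nucleic acids or restrain their sensing, of which 13 lay above WT in each knockout group (background 49.0% of genes tested in L12-ECKO and 54.3% in L12YT-ECKO), or of 8 genes associated with interferon gamma.

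Among 63 tested other interferon-induced genes, 41 lay higher in L12-ECKO than in WT and 47 in L12YT-ECKO, with medians of 0.36 and 0.71 (background 49.0% and 54.3%, with medians of -0.02 and 0.08 over all genes tested). 1 was called, in L12-ECKO (background 0.481%): Psmb9, a subunit of the immunoproteasome, which was at 4.66, 6.42, 7.33 and 6.19 in WT, at 8.52, 9.08, 8.72 and 9.07 in L12-ECKO and at 7.59, 7.66, 8.71 and 8.29 in L12YT-ECKO. It rose by 2.70 in L12-ECKO (SE 0.59, limma adjusted p = 0.0481) and differed by 1.91 in L12YT-ECKO (limma adjusted p = 0.618), and no knockout library overlapped WT. The call was lost in 11 of 12 fits without 1 library, all but the one without WT replicate 3 (limma adjusted p up to 0.121). It was also lost under 7 other settings, among them displaced rows (limma adjusted p = 0.459) or sex (0.184) as a covariate, and over 24 alternatives the adjusted p ran from 0.0231 to 0.843. The tested genes outside the list whose standardized values followed the mean of the members most closely over the 12 libraries were Nt5c3 (Pearson r = 0.885), Dlgap1, Rai2, Eif4a2, Llgl1, Rfx7, Gbp7 and Adhfe1 (0.848). Such correlations take in the group differences and what the libraries share. Dlgap1, Rai2 and Adhfe1 had a WT mean of 0 and so passed the filter only with the knockout libraries. Their correlation with the members is therefore partly set by the filter and is no sign of shared regulation.

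Library features moved with these results, and their part in them was not tested. The mean of the 24 higher members was 7.71 to 8.49 in WT, 8.63 to 9.82 in L12-ECKO and 8.84 to 9.62 in L12YT-ECKO, highest in L12-ECKO replicate 4, which also had the most genes above 0. L12-ECKO replicate 3 had the fewest genes above 0, and there the mean of these members was 8.90. Of those 24, 5 reached a mean of 7 only through the knockout libraries, and the called Isg15 and Bst2 are included. The gap between WT and knockout means is thus partly set by the choice of members. In the libraries without displaced rows the medians of the 51 members were 0.71 for L12-ECKO (1 library, 37 members above WT) and 0.73 for L12YT-ECKO (2 libraries, 39 above WT). All genes above 0 in any library lay above the WT mean in 43.0% and 45.8% of cases there. Because all 8 knockout libraries lay above all WT libraries for Isg15 and Bst2, this also held in the 3 without displaced rows and is no separate result. The 1 L12-ECKO library among these, replicate 1, had a neutrophil and myeloid progenitor marker mean of 8.11, against 0.49 to 1.83 in the other L12-ECKO libraries. Each L12-ECKO library thus had either displaced rows or a high mean of these markers, and the part of either was not tested.

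Markers of other cells were present. Of 14 neutrophil and myeloid progenitor markers 11 were above 0 in WT and in L12YT-ECKO and 12 in L12-ECKO, with Mpo and Elane at 0 in all. Their mean per library was 8.11 in L12-ECKO replicate 1, against 0.49 to 1.83 in the other L12-ECKO libraries, 1.17 to 4.01 in WT and 0.46 to 2.38 in L12YT-ECKO. The mean of 20 macrophage and monocyte markers was 0.94 to 2.75 in WT, 0.98 to 4.10 in L12-ECKO and 1.06 to 2.13 in L12YT-ECKO, with 12, 18 and 12 markers above 0. Ptprc, the common leukocyte marker, was at 10.16 in L12-ECKO replicate 1, at 5.91 and 5.56 in L12YT-ECKO replicates 2 and 3 and at most at 3.90 in WT. Lymphocyte and plasmacytoid dendritic markers, from the cells best known for making interferon, had means of 0.15 to 1.36 in all groups, with 6 of 19 above 0 in WT, 13 above 0 in L12-ECKO and 8 above 0 in L12YT-ECKO, and Cd3e and Siglech were above 0 in 1 and 2 libraries. The mean of 20 liver markers was 0.96 to 2.16 in WT, 3.57 to 6.52 in L12-ECKO replicates 2 to 4 and 4.85 and 4.71 in L12YT-ECKO replicates 3 and 4, which are the libraries with displaced rows. It was 1.13 to 2.08 in the other 3 knockout libraries.

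**Figure D5:**
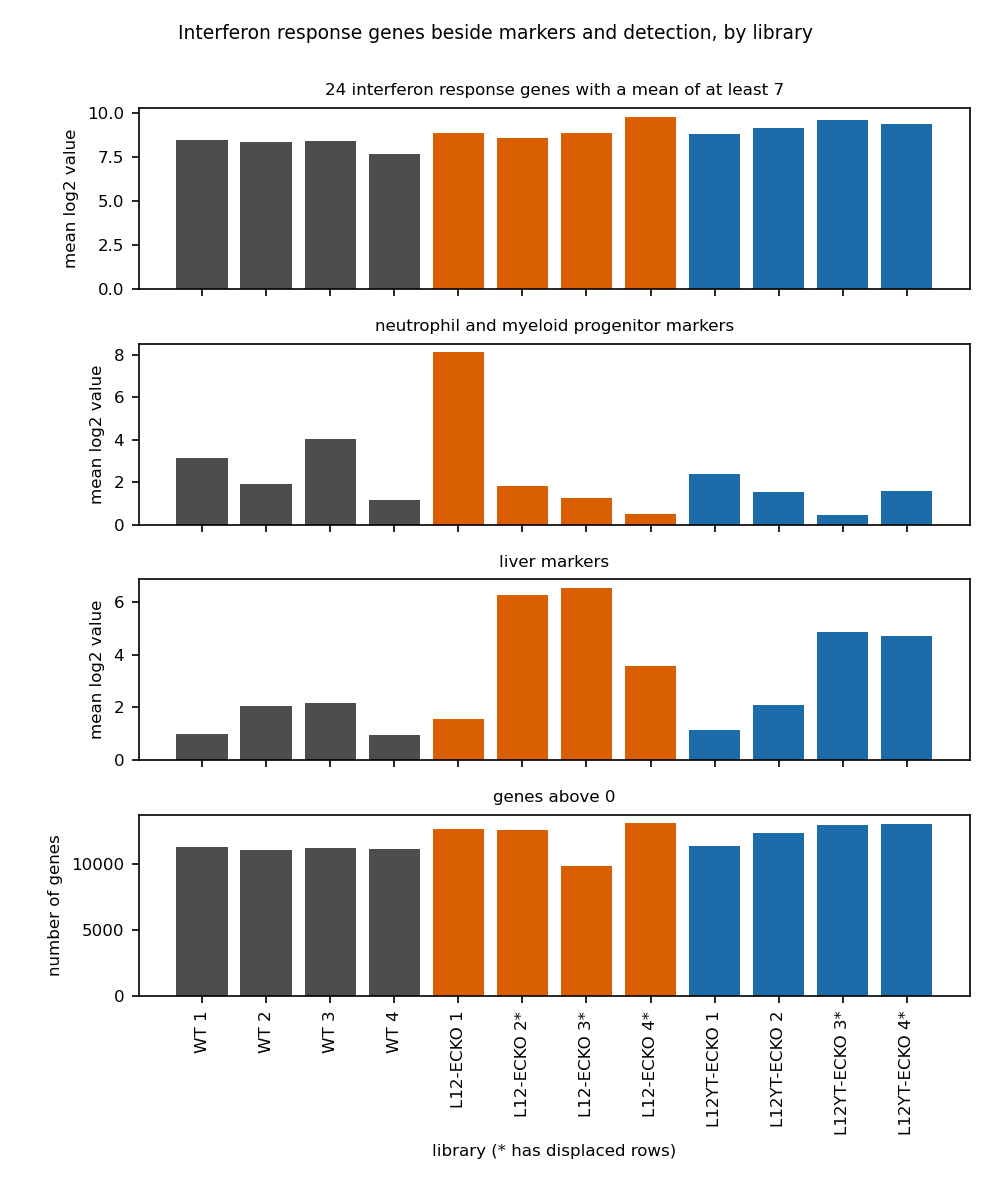
Bars per library (colour by group, asterisks for displaced rows): mean log2 value of the 24 interferon response genes with a mean of at least 7, of the neutrophil and of the liver markers, and the number of genes above 0. The interferon mean is at 7.71 to 8.49 in WT and at 8.63 to 9.82 in the knockout libraries, while the neutrophil mean is high in L12-ECKO replicate 1 and the liver mean in the 5 libraries with displaced rows. Of the 24 genes, 5 reached a mean of 7 only through the knockout libraries, so the gap in the interferon mean is partly set by their choice.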

How the data were processed

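RNA was extracted with Trizol and libraries were made with the Lexogen QuantSeq kit, which reads the 3′ ends of transcripts, per the labels' protocols. Bowtie2, edgeR and the mm10 build are named in the submitters' processing notes; the sources used here give neither roles nor versions. The deposited tables hold 1 log2 value per gene and library. The authors' log2 values appear quantile normalized, since every library has the same maximum (20.665) and nearly the same ranked values. Quantile normalization removes differences in total output, and whether counts were stranded and the depth are not known, so the number of libraries limits the precision.

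Each table lists 24421 genes. 27 that a spreadsheet turned into dates and 34 rows displaced or exchanged in 5 libraries were left out, which left 24360. Groups and replicate numbers came from the sample titles. limma 3.58.1 (R 4.3.3, statmod 1.5.0) estimated group means from all 12 libraries, with a trended, robust variance prior. The genes tested had at least 1 CPM, computed from the values raised from the log2 scale over every row of a table, in at least 4 libraries (11634 genes). Totals without the left-out rows were used first (11780 genes); the change was made after the calls had been seen, to process the tables as in earlier work on them, and the counts of calls were equal. Benjamini-Hochberg adjustment ran over all genes tested, with calls at an adjusted p under 0.05 in 4 comparisons. The fit was checked on simulated data with known changes.

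The members and lists were chosen with earlier results of these data known. Values in every library are given for members called in any comparison, the 8 with the largest difference in both knockout groups versus WT, and the member with the highest mean in each role. From other lists the called genes are given; Irf9 and some values of other members were chosen after seeing them. Alternatives were the variance prior, filters, a pseudocount of 32, 2 scalings, smaller fits, a replicate block, displaced rows and sex as covariates, and each library left out in turn. Sequences and coordinates come from RefSeq (GRCm38.p6), the build of mm10.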

Additional observations from a re-analysis of the deposited data

Results flagged for a closer look

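6 of the 51 groups of 4 libraries examined for the named members held a library far from the other 3. For values without ties, about 1 group in 20 is so marked by chance. In the WT groups below the other 3 libraries are tied at 0, where any value above 0 is marked, so that rate does not apply to them. In WT, Oas1b was at 5.444 in replicate 1, Ifit3 at 3.902 in replicate 1, Ifit1 at 3.075 in replicate 3 and Dhx58 at 4.178 in replicate 4, each with the other 3 WT libraries listed at 0. In L12YT-ECKO, Irf7 was at 6.977 in replicate 1, below 8.705 to 8.935 in the others, and Gbp3 at 5.584 in replicate 2, below 8.671 to 9.055.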

How the results depend on the processing

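25 alternatives to the fit were run, 1 of them (CPM totals without the left-out rows, 11780 genes) chosen after seeing the data. It called the same number of members in all 4 comparisons. Of 2 members called in L12-ECKO versus WT, 0 were called with no trend in the prior variance, with displaced rows as a covariate, with sex as a covariate and over libraries without displaced rows; 1 was called with no filter on low values, with the compared groups alone and with the replicate block; fits without 1 library called 0 to 2. For both knockout groups versus WT the counts were 0 with no trend, no filter, displaced rows or sex as a covariate and over libraries without displaced rows, 1 with the replicate block, and 0 to 2 without 1 library. The same replicate numbers did not pair the libraries (correlations of -0.0467 to 0.0583), and with the block Isg15 had a limma adjusted p of 0.054 in L12-ECKO versus WT. Calls in L12YT-ECKO versus WT and versus L12-ECKO stayed at 0 in all alternatives. The median difference of the tested members, which is partly set by the filter, kept its sign in all. It moved from 1.24 to 0.717 (pseudocount of 32) and 0.849 (libraries without displaced rows) in L12YT-ECKO versus WT, and from 1.07 to 0.614 (pseudocount) in both knockout groups versus WT. Without 1 library it ran from 0.561 (without WT replicate 4) to 1.185 (without L12-ECKO replicate 3) around 0.787 in L12-ECKO versus WT, from 0.753 to 1.235 in both knockout groups versus WT, from 0.888 to 1.453 in L12YT-ECKO versus WT and from 0.097 to 0.731 in L12YT-ECKO versus L12-ECKO. Differences that were not called changed sign in L12-ECKO versus WT at Irf1 -0.134 (displaced rows as a covariate), Irf1 -0.024 (sex as a covariate), Oasl2 -1.442 (only libraries without displaced rows). Without 1 library, those of L12-ECKO versus WT that changed sign ran as Ifi27 -0.013 to 0.643, Irf1 -0.26 to 0.592, Ddx58 -0.013 to 0.992. Differences that were not called changed sign in L12YT-ECKO versus WT at Adar -0.299 (displaced rows as a covariate), Adar -0.236 (only libraries without displaced rows). Without 1 library, those of L12YT-ECKO versus WT that changed sign ran as Gbp3 -0.176 to 1.768, Dtx3l -0.056 to 0.683, Adar -0.129 to 0.738. Differences that were not called changed sign in L12YT-ECKO versus L12-ECKO at Bst2 -0.112, Irf7 -0.051 and Trim25 -0.005 (pan-endothelial mean subtracted), Ifit1 -1.412, Trim25 -0.378 and Rsad2 -0.19 (only libraries without displaced rows), Isg15 0.198, Oas1b -0.015, Irf7 -0.101, Gbp3 0.701 and Dtx3l 0.137 (only libraries with displaced rows). Without 1 library, those of L12YT-ECKO versus L12-ECKO that changed sign ran as Bst2 -0.214 to 0.316, Oas1b -0.23 to 2.036, Ifit3 -0.462 to 1.621, Irf7 -0.485 to 0.663, Ddx58 -0.679 to 0.325, Gbp3 -1.345 to 0.494, Ifit1 -0.542 to 1.157, Trim25 -0.016 to 0.313, Rsad2 -0.003 to 0.76, Dhx58 -0.647 to 2.089, Isg15 -0.863 to 0.196, Dtx3l -0.411 to 0.213. Without 1 library, those of both knockout groups versus WT that changed sign ran as Gbp3 -0.019 to 1.925, Adar -0.379 to 0.133. Subtracting the pan-endothelial mean moved the median of all genes from 0.09 to -0.055 in L12YT-ECKO versus L12-ECKO and from -0.022 to 0.09 in L12-ECKO versus WT. The causes were not tested. The depth is unknown, and low or 0 values are the least precise.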
